A study of Mus musculus with 16 samples.

Results

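Chemokines and their receptors were described in the cortical bone of the femur, as the 56 features whose gene symbol begins with Ccl, Cxcl, Ccr, Cxcr, Ackr, Xcl, Xcr or Cx3c, with or without a further letter, followed by a number. The definition leaves 2 symbols of the family out, and the 56 features were found among 36829 listed. They carried 54 symbols, since Ccl25 and Ccrl1 were each listed as a pair of features, called here the higher and the lower feature of the pair by their mean level. The definition reads symbols alone, so a gene listed under another name was not counted as a member. No feature carried the symbol Ccr2, so this receptor is absent from the counts, ranks and shares below. The symbol Rnf135 stood on 3887 features, and which genes these stand for was not examined. Of the 56 features, 34 were ligands, 21 were receptors and 1 was the pseudogene Ccl19-ps1.

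The bone came from 16 female C57Bl/6 mice of 11 weeks of age, with 8 mice in hindlimb unloading (HLU) for 7 days and 8 Control mice that bore weight normally. In HLU the tail is held in a harness so that the hind limbs touch neither floor nor walls. The bone ends were cut off and the marrow was flushed out before the RNA was taken, and each mouse gave its own library. No mouse carried an engineered allele, by the labels and the methods. The harness was fitted under isoflurane anesthesia, which the methods describe for the HLU group only, and no other drug is named.

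Chemokines are small secreted proteins that steer cells along their gradients, and most of their receptors are G protein-coupled receptors of leukocytes. In bone they are known for holding and releasing marrow cells, for drawing osteoclast precursors to bone surfaces and for the recruitment of leukocytes. Atypical receptors bind chemokines without the usual G protein signal and clear or buffer them.

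The abundance of each transcript was given as RPKM, which scales the reads on a gene to its length and to the size of its library. The divisor of a library ranged from 7067512 to 19708590 reads in Control mice and from 7838277 to 21363584 in HLU mice, so that 3 reads on a gene of 1 kb corresponded to between 0.140 and 0.424 RPKM. Osteocyte transcripts were abundant, with 68.9 ± 39.8 RPKM of Sost in the Control group and 93.4 ± 28.0 in the HLU group (SD, 8 mice a group). Marrow cell transcripts were present in every library as well, since the granulocyte gene S100a8 was at 4438 RPKM or more in each mouse. The levels below are therefore those of bone with remaining marrow cells, and in such bulk RNA fewer cells of a type and less RNA per cell cannot be told apart.

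Most of the 56 features were detected. A value above 0 was found for 49.3 ± 1.49 of the 56 features in a Control mouse and for 49.6 ± 1.85 in an HLU mouse (SD, 8 mice a group), a difference within the spread between mice. A mean of 0.5 RPKM or more, the level kept for testing, was reached by 38 features, that is by 21 of 34 ligands, 16 of 21 receptors and the pseudogene. All 38 were above 0 in every mouse, and 35 of them had at least 3 reads in every mouse.

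Of the 18 features under that level, 6 were above 0 in all 16 mice, namely Ccl22, Ccl27a and Ccl28, which draw T cells to barrier tissues, the receptors Ccr6 and Xcr1, and Cxcl11. The other 12 were above 0 in some mice: the ligands Ccl1, Ccl17, Ccl20, Ccl24, Ccl26, Cxcl1, Cxcl2, Cxcl3 and Cxcl17 and the receptors Ccr4, Ccr8 and Ccr10. No feature was at 0 in all 16 mice. Cxcl1, Cxcl2 and Cxcl3, neutrophil attractants that share a cluster on chromosome 5 with Cxcl5, were above 0 in 13, 7 and 7 of the 16 mice, whereas Cxcl5 had at least 47 reads in each.

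The level was uneven across the family, as the plot of abundance by mouse shows. Only 7 features had a mean above 10 RPKM, 25 lay between 1 and 10 RPKM and the remaining 6 of those kept were below 1 RPKM. Among the ligand features of the definition, Ccl6, Cxcl14 and Ccl9 together held 70.5% of the summed mean RPKM. Among its receptor features, which lack Ccr2, Cxcr4, the higher Ccrl1 feature and Ccr1 held 70.2%.

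**Figure D1:**
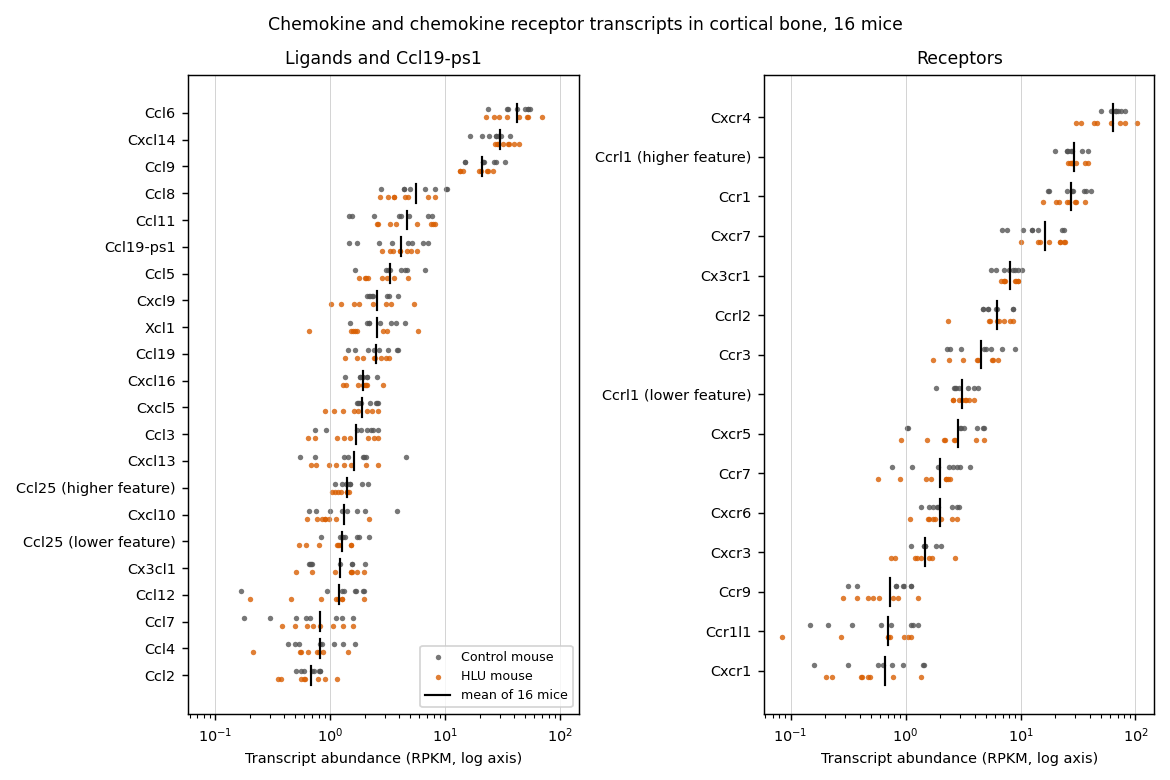
Transcript abundance in RPKM (log axis) of 37 of the 38 features kept, ligands and Ccl19-ps1 at the left and receptors at the right, with a point for each of the 8 Control and 8 HLU mice and a bar at the mean of 16 mice. Cxcr4 heads the receptors at 63.3 RPKM and Ccl6 the ligands at 42.4 RPKM, and the points of both groups overlap in every row.

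The bases before the start of 4 genes are printed because these genes lead the levels or the comparison between groups. Ccl6 and Ccl9 are the most abundant CC ligands and neighbours on chromosome 11, Cxcr4 has the highest level of all, and Cxcl14 passed the test described below. Each run is the 250 bases before the start in RefSeq on GRCm38.p6, 5′ to 3′ on the gene's strand, at chr11:83593088-83593337 for Ccl6, chr11:83578637-83578886 for Ccl9, chr1:128592300-128592549 for Cxcr4 and chr13:56296552-56296801 for Cxcl14, all on the minus strand. Capitals mark matches, on either strand, to the TATA box, searched as TATAAA, to the GC box, searched as GGGCGG, to the core bound by PU.1 and related factors, searched as AGGAAGT, or to the palindrome bound by C/EBP factors, searched as TTGCGCAA.
Ccl6: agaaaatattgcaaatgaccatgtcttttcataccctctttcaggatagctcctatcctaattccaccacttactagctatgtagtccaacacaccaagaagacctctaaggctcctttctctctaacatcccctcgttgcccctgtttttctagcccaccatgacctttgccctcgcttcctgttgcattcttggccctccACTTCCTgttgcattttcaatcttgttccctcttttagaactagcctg
Ccl9: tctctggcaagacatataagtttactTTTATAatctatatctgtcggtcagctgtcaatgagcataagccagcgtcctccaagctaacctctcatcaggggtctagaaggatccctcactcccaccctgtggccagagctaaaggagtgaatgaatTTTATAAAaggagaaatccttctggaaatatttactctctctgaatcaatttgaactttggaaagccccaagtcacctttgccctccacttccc
Cxcr4: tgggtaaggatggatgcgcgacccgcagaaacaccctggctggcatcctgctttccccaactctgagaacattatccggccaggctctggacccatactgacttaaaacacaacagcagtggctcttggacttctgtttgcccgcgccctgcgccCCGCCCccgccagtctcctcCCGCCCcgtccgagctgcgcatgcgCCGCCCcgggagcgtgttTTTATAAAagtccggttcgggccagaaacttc
Cxcl14: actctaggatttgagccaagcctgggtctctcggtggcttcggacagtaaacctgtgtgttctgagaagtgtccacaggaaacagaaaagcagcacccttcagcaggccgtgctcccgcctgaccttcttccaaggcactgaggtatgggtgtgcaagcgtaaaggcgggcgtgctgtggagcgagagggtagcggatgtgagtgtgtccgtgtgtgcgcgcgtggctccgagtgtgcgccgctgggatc

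Ccl6 held a match to the PU.1 core, on the opposite strand, beginning 48 bases before its start. Ccl9 held matches to TATAAA at 224, 94 and 92 bases, where the last pair are overlapping matches on the 2 strands. Cxcr4 held matches to TATAAA at 32 and 30 bases, overlapping in the same way, and to the GC box at 95, 75 and 50 bases. Cxcl14 held none of these motifs in its window. The longest run shared by Ccl6 and Ccl9 was GCCCTCCACTTCC, of 13 bases, which began 55 bases before the start of Ccl6 and 14 bases before that of Ccl9. Of 44 promoters found for 38 of the family's symbols, 13 (29.5%) held the TATA box, against 12.4% of all 32851 promoters. The GC box was held by 8 (18.2%) against 32.7%, and the PU.1 core by 7 (15.9%) against 7.69%. The C/EBP palindrome was held by 0 against 0.164%. Whether these shares differ beyond chance was not tested.

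Ccl6 and Ccl9 are ligands of Ccr1 made by myeloid cells, and Ccl9 is also known as an osteoclast product. Their genes lie 9.245 kb apart in the annotation of GRCm38, in a cluster of 138.906 kb with Ccl5, Ccl3 and Ccl4. Ccl6 lay between 23.6 and 55.2 RPKM (median 45.8) in the Control group, and between 22.8 and 70.1 (median 39.3) in the HLU group. Ccl9 lay between 15.0 and 33.1 RPKM (median 21.8) in the Control group, and between 13.5 and 26.0 (median 20.1) in the HLU group. For both genes the groups overlapped over most of their range, and HLU 7 was the lowest mouse. The log2 difference between the groups (HLU minus Control, on log2 of RPKM + 0.1) was -0.10 with a standard error of 0.23 for Ccl6 and -0.23 with 0.19 for Ccl9, neither beyond the spread between mice.

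Cxcl14, a CXC chemokine made by stromal and epithelial cells, had the second-highest level of any ligand. It lay between 16.4 and 36.6 RPKM (median 27.9) in the Control group, and between 27.3 and 44.5 (median 33.5) in the HLU group. All but 1 of the 8 HLU mice were above the Control median, 2 of them above every Control mouse, while Control 6 and Control 3 were the lowest of the 16. Ccl8 and Ccl11, monocyte and eosinophil attractants encoded together on chromosome 11, followed at a lower level. Ccl8 lay between 2.77 and 10.5 RPKM (median 5.83) in the Control group, and between 2.75 and 8.24 (median 4.07) in the HLU group. Ccl11 lay between 1.45 and 7.79 RPKM (median 4.06) in the Control group, and between 2.59 and 8.25 (median 4.72) in the HLU group. Both genes overlapped widely between the groups, and the within-group coefficient of variation was 43.7% for Ccl8 and 51.3% for Ccl11.

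The other 16 ligands and the pseudogene kept had means from 0.678 to 4.13 RPKM. Inflammatory ligands that draw T cells and monocytes were Ccl5 at 3.35, Ccl3 at 1.69, Ccl4 at 0.811, Cxcl9 at 2.58 and Cxcl10 at 1.316 RPKM, each a mean over 16 mice. Other monocyte attractants were Ccl12 at 1.202, Ccl7 at 0.827 and Ccl2 at 0.678 RPKM. The lymphoid ligands were Ccl19 at 2.52, Cxcl13 at 1.6025, the higher Ccl25 feature at 1.40 and the lower at 1.26 RPKM. Ccl19-ps1 was at 4.13, Xcl1, a product of T and NK cells, at 2.57, Cxcl16 at 1.94, Cxcl5 at 1.92 and Cx3cl1, the membrane-bound ligand of Cx3cr1, at 1.23 RPKM. In the Ccl25 locus the opposite strand carries Elavl1, at 15.9 ± 2.79 RPKM (SD, n = 16), and the library kit does not mark strand, so the reads of both genes cannot be told apart there.

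Cxcr4, the receptor that retains hematopoietic cells in marrow, lay between 49.9 and 81.8 RPKM (median 67.9) in the Control group, and between 30.5 and 102 (median 54.1) in the HLU group. The HLU mice were spread on both sides of the Control mice, with HLU 2 above all 8 of them and HLU 7, 4, 6 and 1 below all 8. Ccr1, a receptor of monocytes, neutrophils and osteoclast precursors, lay between 17.4 and 41.0 RPKM (median 28.2) in the Control group, and between 15.7 and 36.5 (median 25.7) in the HLU group. Ccr3, the eosinophil receptor for Ccl11, lay between 2.27 and 8.97 RPKM (median 4.91) in the Control group, and between 1.74 and 6.34 (median 4.22) in the HLU group. Cx3cr1, a receptor of monocytes and macrophages, lay between 5.50 and 10.3 RPKM (median 8.29) in the Control group, and between 6.82 and 9.60 (median 8.11) in the HLU group. The groups overlapped for Ccr1, Ccr3 and Cx3cr1, and Cx3cr1 varied least of all 38 features within a group, with a coefficient of variation of 17.8%. The Cx3cr1 locus overlaps Wdr48 (18.5 ± 2.31 RPKM) on the opposite strand and Gorasp1 (8.48 ± 0.841 RPKM) on its own strand (SD, n = 16). It also overlaps Ttc21a and Csrnp1, at lower levels, so the share of each gene in the Cx3cr1 reads and their spread is unknown.

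Among the 56 features the atypical receptors were all kept. Darc and Ccbp2, atypical receptors listed under older names, fall outside the definition and are given further below. Ccrl1, also called Ackr4, scavenges Ccl19 and Ccl25, and its higher feature lay between 19.8 and 38.4 RPKM (median 26.7) in the Control group, and between 25.9 and 38.8 (median 28.1) in the HLU group. Its lower feature had a mean of 3.12 ± 0.633 RPKM (SD, n = 16), and both lie over Acad11 on the opposite strand, so the share of each gene in these reads is unknown. Cxcr7, also called Ackr3, clears chemokines from the tissue and lay between 6.95 and 23.9 RPKM (median 12.6) in the Control group, and between 10.1 and 24.6 (median 19.8) in the HLU group. For Cxcr7, all but 1 of the 8 HLU mice were above the Control median, but Control 3 and Control 8 were as high as the upper HLU mice. Ccrl2, which binds chemerin rather than a chemokine, lay between 4.69 and 8.66 RPKM (median 5.67) in the Control group, and between 2.35 and 8.54 (median 6.40) in the HLU group. HLU 4 alone lay below the Control mice for Ccrl2.

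The remaining receptors reported were between 0.662 and 2.87 RPKM in their mean over 16 mice. These were the lymphocyte receptors Cxcr5 at 2.87, Ccr7 at 2.01, Cxcr6 at 1.99, Cxcr3 at 1.48 and Ccr9 at 0.728 RPKM, Ccr1l1 at 0.703 and the neutrophil receptor Cxcr1 at 0.662 RPKM. The Ccr9 locus overlaps other genes, among them Slc6a20a at 10.4 ± 4.59 RPKM (SD, n = 16) on the opposite strand. The share of each gene in the Ccr9 reads is unknown. Cxcr5 and Ccr7, which place B and T cells in lymphoid follicles and zones, shared their 4 lowest mice, Control 5, Control 6, HLU 6 and HLU 7. The summed level of 7 B cell markers in the same mice was 35.9, 55.3, 42.7 and 29.7 RPKM, against 140 RPKM in the highest mouse. HLU 4, at 43.7 RPKM, was below Control 6 in this sum but not among the 4 lowest mice for Cxcr5 or Ccr7, and the part of these markers in the Cxcr5 and Ccr7 levels was not tested.

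Few neighbours in the order of the 38 levels were apart by more than their spread. The difference of means between neighbours exceeded the larger SD over the 16 mice at 3 of 37 steps, from Cxcr4 to Ccl6, from Cxcr7 to Cx3cr1 and from Cx3cr1 to Ccrl2. Below Ccrl2 no neighbours differed by this measure. The order between genes also rests on the gene lengths that the authors used. When levels were recomputed with the exon lengths of GENCODE M21, the first 3 places stayed with Cxcr4 at 94.7, Ccl6 at 60.1 and Cxcl14 at 33.6 RPKM, while others moved in the order of all 56 features. The lower Ccl25 feature went from place 30 to place 44, the lower Ccrl1 feature from 15 to 26, Ccl12 from 32 to 21, Ccl19 from 19 to 12 and the higher Ccrl1 feature from 4 to 7.

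Ligands and their receptors were set side by side on the RPKM scale. Ccl6 was above its receptor Ccr1 in 16 of 16 mice, and Ccl9 was below Ccr1 in 16 of 16. Ccl3 and Ccl5 were also below Ccr1 in every mouse. Cx3cl1 was below Cx3cr1, whose locus overlaps other genes, in 16 of 16 mice, and Cxcl13 was below Cxcr5 in 14 of 16. Ccl19 and Ccr7, Cxcl16 and Cxcr6, and Ccl11 and Ccr3 had the ligand higher in 9 of 16 mice for each pair. With the lengths of GENCODE M21 these means were 4.92 for Ccl19 beside 2.01 for Ccr7, 2.95 for Cxcl16 beside 1.96 for Cxcr6, and 4.69 for Ccl11 beside 9.05 RPKM for Ccr3. The order of the means thus changed for Cxcl16 and Cxcr6 and for Ccl11 and Ccr3, but not for Ccl19 and Ccr7. All counts of mice for these and the other pairs rest on the lengths that the authors used. The ligand was higher in 16 of 16 mice for Ccl8 and Ccr8, Xcl1 and Xcr1, Ccl22 and Ccr4, and Ccl27a and Ccr10 as well, and lower in 16 of 16 for Ccl20 and Ccr6, Ccl24 and Ccr3, and Cxcl11 and Cxcr3. A dendritic cell receptor such as Xcr1 is carried by few cells, and these counts describe transcripts of whole bone, not of any cell.

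**Figure D2:**
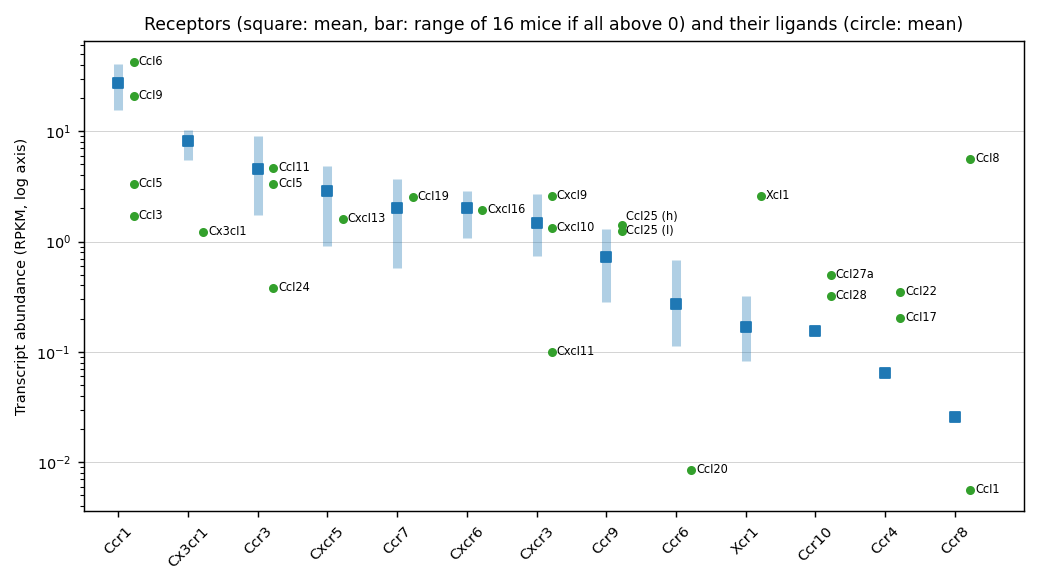
Mean transcript abundance in RPKM (log axis) of each receptor (square, n = 16 mice, with a bar for the range of the mice where all were above 0) and of its ligands (circles), ordered by receptor level, where (h) and (l) stand for the higher and lower Ccl25 feature. Ccr1 at 27.3 RPKM stands between Ccl6 at 42.4 and Ccl9 at 21.1 RPKM, while Ccr8 and Ccr4 lie far below Ccl8 and Ccl22.

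HLU was compared with Control for all 16973 features kept, with limma on log2(RPKM + 0.1), and a feature was called at an unadjusted p under 0.05 with a change of at least 1.2-fold. Of the 38 family members 2 were called, Cxcl14 as higher and another as lower in HLU mice, that is 5.26%, against 5.87% of all features. By direction, 1 of 38 was lower against 4.76% of all features and 1 of 38 higher against 1.11%. The share of the family called was thus near the background. After Benjamini-Hochberg adjustment over all features no family member passed at 0.1 (adjusted p from 0.744 to 0.980 in limma), nor did any other feature, and 1049 features, or 6.18%, had an unadjusted p under 0.05 at any fold. No family member had groups that did not overlap, as was the case for 0.0295% of all features.

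Cxcl14 rose by 0.37 on the log2 scale (standard error 0.15, limma p = 0.0281, exact permutation p = 0.0280, adjusted p = 0.744), from 26.7 ± 6.17 RPKM in the Control group to 34.1 ± 6.03 in the HLU group (SD, 8 mice a group). The call depended on some single mice. It was kept in 12 of the 16 fits that left out a library, and was lost without Control 3 (0.32), without Control 6 (0.27), without HLU 1 (0.33) and without HLU 5 (0.31). It was lost too without the 2 smallest libraries, Control 2 and HLU 5 (0.32). The direction held in each of these fits. The difference was 0.46 with median-of-ratios rescaling, 0.51 with quantile normalization, 0.43 with voom and 0.45 with the marker scores as covariates, and was called in these 4 fits.

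Markers of osteocytes, adipocytes and endothelial cells had differences of the same sign as Cxcl14, while those of osteoblasts and osteoclasts were mixed. All 6 osteocyte markers had a log2 difference above 0, with 1 called higher (Mepe), and their sum ranged from 179 to 589 RPKM in Control mice and from 263 to 598 in HLU mice. All 4 adipocyte markers were above 0 as well, with 1 called higher (Fabp4), and their sum ranged from 408 to 777 RPKM in Control mice and from 486 to 825 in HLU mice. All 5 endothelial markers were above 0 with 0 called, and their sum ranged from 54.5 to 67.5 RPKM in Control mice and from 56.1 to 82.2 in HLU mice. Of 6 osteoblast markers 4 were below 0 with a median of -0.09. Of 6 osteoclast markers kept 3 were below 0 with a median of 0.03, and 0 were called in either list. Over all features 1.11% were called higher and 67.9% were below 0. None of these markers was at 0 in all mice, and their part in the Cxcl14 difference was not tested.

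**Figure D3:**
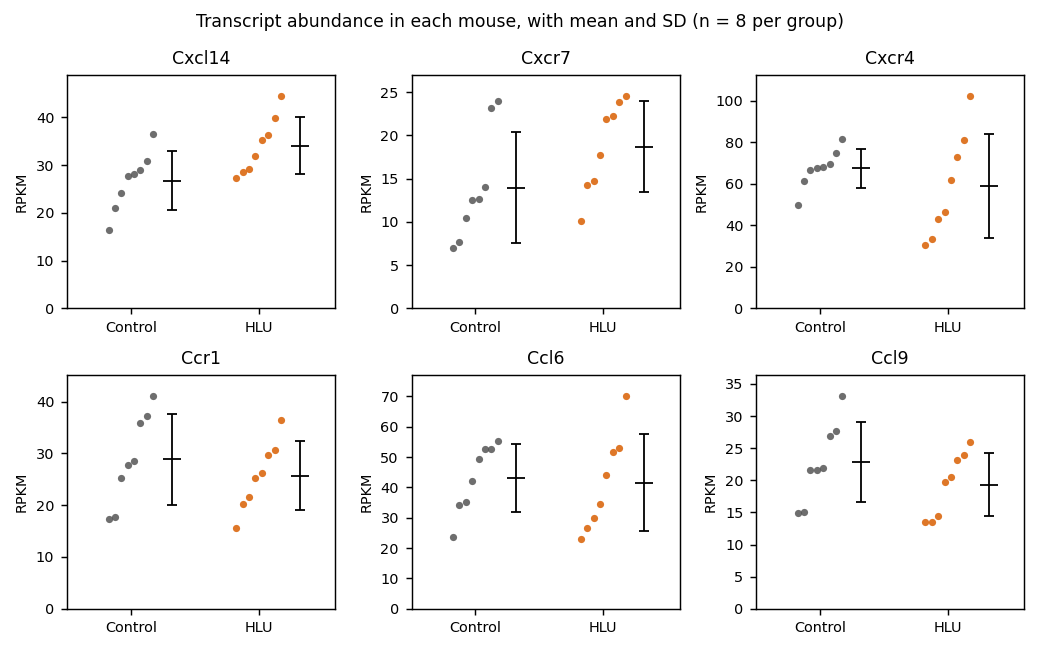
Transcript abundance in RPKM of 6 family members in each Control and HLU mouse (points, sorted within a group), with the mean and SD beside them (n = 8 per group) and each axis starting at 0. Cxcl14 reaches 36.6 RPKM in the Control group and 44.5 in the HLU group, Cxcr4 reaches 81.8 and 102 RPKM, and the groups overlap in all 6 panels.

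The other 36 members kept were not called. The nearest to the threshold were the lower Ccl25 feature with a log2 difference of -0.44 (exact permutation p = 0.0771), Cxcr7 with 0.49 (p = 0.1002), Ccl5 with -0.45 (p = 0.106) and Cxcl5 with -0.35 (p = 0.101), all with an adjusted p of 0.744 in limma. Some members passed the limma threshold when a single library was left out, with the log2 difference given here. Ccl5 passed without Control 2 (-0.61) or HLU 8 (-0.57), Cxcl5 without HLU 5 (-0.45) and Ccl8 without Control 2 (-0.57). Cxcr7 passed without Control 3 (0.62), Control 8 (0.61) or HLU 2 (0.61), and Cxcr4 without HLU 2 (-0.43). The lower Ccl25 feature passed without Control 3 (-0.54), HLU 1 (-0.52) or HLU 2 (-0.52).

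Over the 38 members 28 log2 differences were below 0 and 10 above 0, with a median of -0.19. Over all 16973 features the median was -0.10 and 67.9% were below 0, against 73.7% of the family. By role, 17 of 21 ligands were below 0 with a median of -0.24, and 11 of 16 receptors with a median of -0.16. Of 11 inflammatory ligands 9 were below 0, the exceptions being Ccl7 and Ccl11. Of 4 atypical receptor features in the family, with both Ccrl1 features among them, 3 were above 0. The exception was Ccrl2, which was above 0 too under the other 2 scalings described next. Darc, an atypical receptor outside the definition, was below 0 (-0.46) and not called. The counts given here are of differences that mostly did not pass the test.

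Markers of leukocytes, the cells that make or carry many members, also had log2 differences mostly below 0. Over all features 4.76% were called lower, 67.9% were below 0 and the median was -0.10. All 8 T and NK cell markers kept were below 0 with a median of -0.43 and 1 called lower (Cd3d), and their sum ranged from 18.5 to 45.7 RPKM in Control mice and from 13.0 to 39.7 in HLU mice. All 7 B cell markers were below 0 with a median of -0.35 and 0 called, and their sum ranged from 35.9 to 140 RPKM in Control mice and from 29.7 to 94.4 in HLU mice. Of 9 monocyte and macrophage markers 8 were below 0 with a median of -0.21, and of 8 granulocyte markers 7 with a median of -0.15, with 0 called in either list. The monocyte and macrophage sum ranged from 383 to 596 RPKM in Control mice and from 229 to 612 in HLU mice. Of 5 eosinophil and mast cell markers 4 were below 0 with 0 called, and their median of -0.10 was near that of all features. No marker of these lists was at 0 in all mice, and their part in the differences of the family was not tested.

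**Figure D4:**
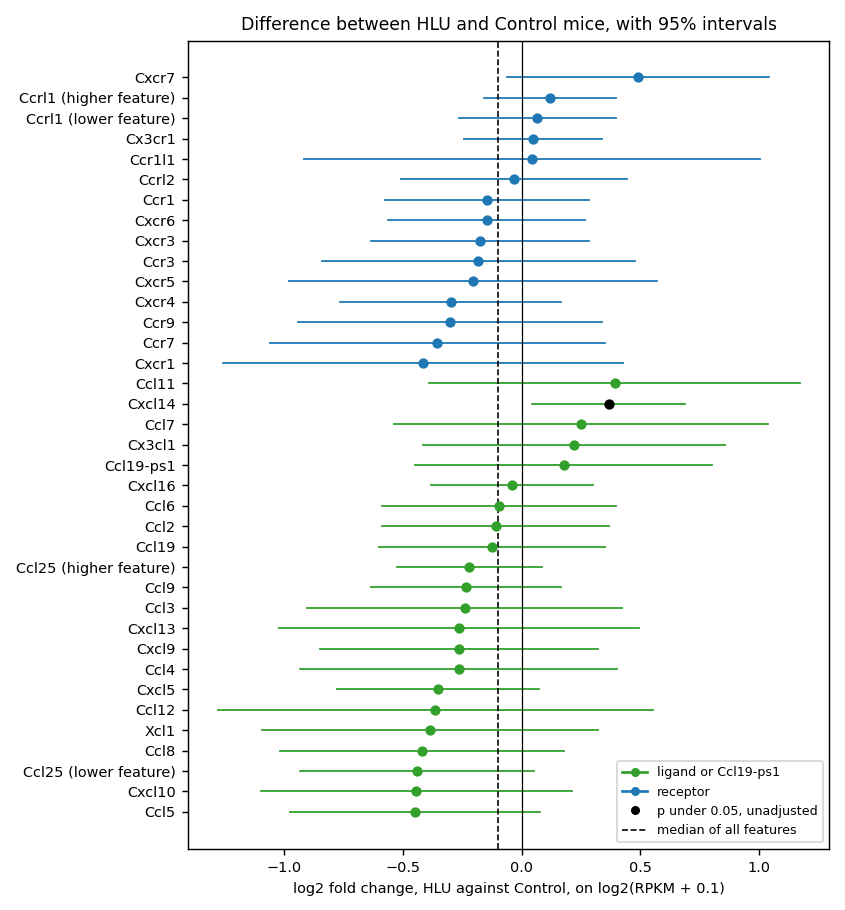
Log2 difference between HLU and Control mice (HLU minus Control, on log2(RPKM + 0.1)) of 37 members kept, receptors above and ligands below, each with its 95% confidence interval from limma, a solid line at 0 and a dashed line at the median of all features, -0.10. A black point marks Cxcl14 at 0.37, whose interval does not hold 0, and the other 36 intervals cross 0.

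The scaling between libraries shifted the whole distribution. RPKM as deposited gave 188 features higher and 808 lower, median-of-ratios rescaling gave 381 (2.24%) and 395 (2.33%), and quantile normalization 460 (2.71%) and 364 (2.14%). The median over all features moved from -0.10 to -0.01 and 0.00104 under these 2 scalings, and the family median to -0.10 and -0.11, so the family stayed below the median of all features by about the same amount. Cxcr7 was called higher, next to Cxcl14, under both scalings, with 0.58 and 0.61. Of the 38 members 26 were below 0 with median-of-ratios rescaling and 25 with quantile normalization. Against the median of all features in the deposited values, 25 were lower and 13 higher.

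The number of members called changed with the setting. Median-of-ratios rescaling called 2 members higher and 1 lower, with 4.57% of all features called, and quantile normalization 2 higher and 0 lower, with 4.85%. The voom fit on recovered reads called 1 higher and 1 lower, with 5.09% of all features called, 1.56% higher and 3.53% lower. Scores of erythroid and granulocyte markers as covariates gave 5 higher and 4 lower, with 19.2% of all features called, 8.39% higher and 10.8% lower, and 1.01% past the adjusted p. Without the 2 smallest libraries 0 members were higher and 4 lower, with 5.72% of all features called, 0.636% higher and 5.08% lower.

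Genes of the family under names that the definition does not match, and genes downstream or upstream of it, were counted in the same comparison. Of 7 such chemokines and receptors kept, 3 were called lower and 0 higher, where 4.76% of all features were lower and 1.11% higher. The 3 were Pf4 (-0.76, exact permutation p = 0.0157) and Ppbp (-0.68, p = 0.0177), platelet chemokines of the CXC group, and Cklf (-0.42, p = 0.0426), a chemokine-like factor. Pf4 stood at 185 RPKM in the Control group (SD 77.96) and 106 in the HLU group (SD 35.3), and Ppbp at 1084 and 707 RPKM (SD 260.3 and 282, 8 mice a group), levels far above any ligand of the family. Darc, Cmklr1, Rarres2 and Mif were tested and not called, with log2 differences of -0.46, -0.05, 0.14 and -0.36, and Ccbp2 and Pitpnm3 were under the level kept. The 4 megakaryocyte markers kept, which include Pf4 and Ppbp themselves, were all below 0, and their sum ranged from 939 to 1580.2 RPKM in Control mice and from 406 to 1353 in HLU mice. Their part in these differences was not tested.

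Of 21 genes of chemokine receptor signalling kept, such as Gnai2, Arrb2 and Rac2, 0 were called, 20 were below 0 and the median was -0.13, against 5.87% of all features called, 67.9% below 0 and a median of -0.10. Of 19 cytokines and regulators that induce chemokine genes, 1 was called lower, 16 were below 0 and the median was -0.17. The interferon-induced ligands Cxcl9 and Cxcl10 had differences of -0.26 and -0.44 (exact permutation p = 0.385 and 0.190). Tnf, Il1b and Nfkbia had 0.03, -0.30 and -0.06, none past the test.

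The mice differed in the family's level more than the groups did. The ligands summed to 135 ± 18.6 RPKM in the Control group and 132 ± 20.5 in the HLU group, and the receptors to 174 ± 22.7 and 167 ± 35.2 RPKM (SD, 8 mice a group). HLU 7 held the lowest value of 11 of the 38 members, among them Cxcr4, Ccl6, Ccr1, Ccl9, Ccr3, Ccr7 and Cxcr5, and HLU 4 of 5. Granulocyte markers summed to 1.24e+04 RPKM in HLU 7, the lowest of the 16 mice, and to 4.46e+04 in HLU 2, the highest, and HLU 2 was also the highest mouse for Cxcr4 and Ccl6. Granulocyte markers were not alone in this. HLU 7 was also the lowest mouse for the summed T and NK cell (13.0 RPKM), B cell (29.7 RPKM) and megakaryocyte markers (406 RPKM). For monocyte and macrophage markers HLU 4 was lower, at 229 RPKM against 256 in HLU 7, and HLU 2 was the highest, at 612 RPKM. The part of any of these cell types in the levels of HLU 7 and HLU 2 was not tested. The median coefficient of variation within groups was 36.9% over the 38 members and 30.1% over all features kept. Counting reads alone would give a coefficient of variation of 2.04% for Cxcr4, where 30.03% was observed, of 9.76% for Cxcr5, where 47.8% was observed, and of 37.4% for Ccl4, where 48.1% was observed.

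Genes of a cluster differed widely in level. The cluster of Ccl5, Ccl9, Ccl6, Ccl3 and Ccl4 on chromosome 11 spanned 0.811 to 42.4 RPKM. All 5 log2 differences were below 0 and 0 were called, where 67.9% of all features were below 0 and 5.87% called. The cluster of Ccl2, Ccl7, Ccl11, Ccl12, Ccl8 and Ccl1 on the same chromosome reached 5.62 RPKM at most. Of its 5 genes kept, 3 were below 0, 2 above 0 and 0 called.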

How the data were processed

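The 16 libraries were grouped as Control or HLU by their labels, with 8 mice in each. Libraries came from the TruSeq v2 kit, 8 shared a HiSeq lane, and TopHat2 aligned the reads. The submitters' processing notes also name mm9 and DESeq2, and no annotation or counting tool is given in the sources used here. The authors deposited RPKM values for each mouse, which adjust for length and depth but for no other difference between libraries. Lane and extraction day are not given, so such batches were not tested.

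The 0.5 RPKM level was applied to the mean of 16 mice. Groups were compared with limma 3.58.1 (R 4.3.3) after taking log2(RPKM + 0.1), variances moderated along a trend with abundance, and with Benjamini-Hochberg adjustment over 16973 features. Members and list genes also had an exact permutation p, two-sided, from all 12870 splits of 8 against 8 mice, whose smallest p is 0.000155. A count test was replaced by limma because RPKM are not counts. Whole reads, within 0.01 reads, were recovered for all features kept from the step that 1 read makes. For features with few reads the smallest solution was taken, which may be too low by a whole factor, and PCR copies are not independent reads, so statements from reads cover counting error only.

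Gene lengths implied by the values equal those of GENCODE M21 exons for 4224 of 24791 genes, and overlapping genes are counted without strand. Positions are those of GENCODE M21 on GRCm38, or of RefSeq on GRCm38.p6 for promoters, not of the authors' build. The members and lists were chosen with earlier results of these data known. Levels by group were given for the 12 members with the highest mean and for every member with an unadjusted p under 0.05 except 1 that is not reported here, members under 0.5 RPKM were named by detection, and list genes by an unadjusted p under 0.05. Examples of genes without a call were chosen after their values were seen. A list of skeletal muscle markers was not used here, as none of its 5 genes is among the rows used. Scripts were tested on simulated data. Alternatives were another pseudocount, filter or scaling, the replicate number as a block, no variance trend, voom on recovered reads, marker scores as covariates and libraries left out. Python 3.11.15, numpy 2.4.6, scipy 1.17.1, pandas 2.3.3 and matplotlib 3.10.9 were used.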

Additional observations from a re-analysis of the deposited data

Results flagged for a closer look

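In groups of 8 mice, 3 values of kept members stood apart from the rest, with a gap to the nearest mouse above the 95% critical value of Dixon's test. Chance gives about 1 such value in 20 groups, and 76 groups were examined. Cxcl13, the ligand of Cxcr5 that draws B cells, was at 4.55 RPKM in Control 8, where the next Control mouse was at 2.06 and the lowest at 0.552. Cxcl10, the interferon-induced ligand of Cxcr3, was at 3.84 RPKM in Control 6, where the next Control mouse was at 2.03. In HLU mice, Cxcl10 was at 2.19 RPKM in HLU 5 and at 1.13 or less in the others.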

How the results depend on the processing

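Detection with at least 3 reads gave a mean of 46.5 features in Control and 45.75 in HLU mice, and with at least 0.5 RPKM 37.5 in both. Over all features, those higher in HLU mice numbered 391 with no filter, 106 with a minimum mean of 2 RPKM, 381 with median-of-ratios rescaling, 460 with quantile normalization, 1424 with the marker scores as covariates and 108 without the 2 smallest libraries. Those lower numbered 395, 364 and 1841 with median-of-ratios rescaling, quantile normalization and covariates. An adjusted p under 0.1 was reached by 1 feature with no filter, 1 with no variance trend and 172 with covariates, and by no family member in any fit. Family members called higher were 2 with median-of-ratios rescaling, 2 with quantile normalization, 5 with covariates and 0 without the 2 smallest libraries. Members called lower were 0 with a minimum of 2 RPKM, 0 with quantile normalization, 4 with covariates and 4 without the 2 smallest libraries. The cause of these changes was not tested.

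The log2 difference changed sign for Cxcl16 (0.0473 with median-of-ratios, 0.0405 with quantile normalization, 0.0018 with voom on recovered reads, 0.0363 with covariates), Ccrl2 (0.0585, 0.0781, 0.0304 and 0.354 in the same order), Ccl6 (0.0354 with quantile normalization), the lower Ccrl1 feature, Cxcr3 and Ccl19 (-0.13, 0.134 and 0.0895 with covariates) and Cx3cr1 (-0.0486 without the 2 smallest libraries). Other pseudocounts, no filter and no variance trend kept the direction and the call of all 38 members.

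With any single library left out, 117 to 363 features were higher, 471 to 1385 lower and 0 to 1 past the adjusted p, and 0 to 2 members were higher and 1 to 3 lower. The lowest counts over all features came without HLU 7 and the highest without HLU 2. The sign changed within these fits for Ccl19-ps1 (-0.000671 to 0.315), Ccl6 (-0.217 to 0.0131), Ccr1l1 (-0.164 to 0.317), the lower Ccrl1 feature (-0.0306 to 0.139), Ccrl2 (-0.109 to 0.151), Cx3cr1 (-0.0251 to 0.103) and Cxcl16 (-0.125 to 0.0316). With the replicate number as a block, 199 features were higher and 840 lower, and 1 member was called higher, Cxcl14 (0.37), and 1 lower. The numbers did not pair the mice, since deviations of same-numbered mice correlated at -0.17 to 0.51, over 0.1 in 3 of 8 pairs, and 1 of 8 Control mice correlated best with its own number. At the depth of these libraries, Ccl7, Ccr1l1 and Cxcr1 fell under 3 reads in some mouse, and of the 18 features under 0.5 RPKM, fitted with limma only where no filter was used, 0 were called.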
